A study of Saccharomyces cerevisiae with 6 samples.

Results

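The 10 budding yeast genes described here make, move and use glycerol. They were taken by name from the 5917 rows of the deposited table: GPD1 (YDL022W), GPD2 (YOL059W), GPP1 (YIL053W) and GPP2 (YER062C) for synthesis, STL1 (YDR536W) and FPS1 (YLL043W) for transport, and GUT1 (YHL032C), GUT2 (YIL155C), GCY1 (YOR120W) and DAK1 (YML070W) for use. The study asked how edelfosine, a synthetic analogue of lysophosphatidylcholine, changes gene expression in Saccharomyces cerevisiae. Log-phase cultures in synthetic defined medium at 30 °C received 20 uM edelfosine or 0.095% ethanol, the vehicle, for 60 minutes, and poly(A) RNA was sequenced. There were 3 edelfosine and 3 vehicle libraries. Of each treatment's cultures the first 2 were of strain W303 and the third of strain BY4741, both common laboratory strains, so the strain cannot be told apart from whatever else set replicate 3 apart.

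Yeast makes glycerol from dihydroxyacetone phosphate, an intermediate of glycolysis. A glycerol-3-phosphate dehydrogenase (Gpd1 or Gpd2) reduces it with NADH, and a phosphatase (Gpp1 or Gpp2) then releases glycerol. Gpd1 and Gpp2 are known as the isozymes induced when the medium becomes hyperosmotic, where glycerol serves as the compatible solute under control of the HOG (high osmolarity glycerol) kinase pathway, whereas Gpd2 and Gpp1 are known for redox balance, above all without oxygen. Glycerol leaves the cell through the channel Fps1 and is taken up by the proton symporter Stl1. It is used either by the kinase Gut1 and the mitochondrial dehydrogenase Gut2, or by an alternative route in which Gcy1 oxidises it to dihydroxyacetone and Dak1 phosphorylates the product.

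The isozyme pairs are related in sequence, so it was asked whether short reads can tell their members apart. In the R64 reference genome of strain S288C, the coding sequences of GPP2 (chrV:279930-280682, minus strand) and GPP1 (chrIX:255115-255867, plus strand) are both 753 bases long and identical at 623 of 753 aligned positions (82.7%). The 60-base stretch in which they are most alike, bases 55 to 114 of each coding sequence, still differs at 4 positions, shown in capitals.
GPP2: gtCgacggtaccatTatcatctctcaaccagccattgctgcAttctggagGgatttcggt
GPP1: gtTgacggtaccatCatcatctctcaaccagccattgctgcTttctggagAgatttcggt

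The stretch in which they are least alike, bases 336 to 395, differs at 16 positions, again in capitals.
GPP2: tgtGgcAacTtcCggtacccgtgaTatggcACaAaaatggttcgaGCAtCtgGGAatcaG
GPP1: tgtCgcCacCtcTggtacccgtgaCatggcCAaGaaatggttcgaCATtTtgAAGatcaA

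No run of 31 bases in GPP1, GPP2, GPD1, GPD2, GUT1, GUT2, STL1, GCY1 or DAK1 recurs in another coding sequence of R64 on either strand, and of the 1980 such runs in FPS1 5 (0.253%) recur, in SAP30. GPD1 (chrIV:411825-413000, plus strand) and GPD2 (chrXV:217126-218448, plus strand) are identical at 74.2% of aligned positions. No member overlaps another annotated coding gene. The deposited table carries no coordinates and its transcript build is not given in the sources used here, so positions and sequences are those of R64 and not of the strains sequenced.

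The stress response element, the 5-base site CCCCT or AGGGG bound by the general stress factors Msn2 and Msn4, was searched on both strands in the 500 bases before each start codon. Of 6006 nuclear coding genes with a full window, 34.1% held at least 1 match, 8.18% at least 2 and 1.83% at least 3. At least 1 match was found for 7 of the 10 members: 3 for GPD1, 2 for GPD2 and 1 each for GPP2, GUT1, GUT2, STL1 and GCY1. None was found for GPP1, DAK1 or FPS1. The windows of GUT1, GUT2 and GPP1 run into the coding genes GOS1, IMP21 and YIL054W, in that order, and were not trimmed. The matches of both GPD genes, GPP2 and GCY1 follow in the 5′ to 3′ direction of the gene with the element in capitals, because these genes went opposite ways or lead the results.
GPD1, 330 bases before the start codon, chrIV:411483-411511: taaacggggcgcCCCCTgcaggccctcct
GPD1, 286 bases before, chrIV:411527-411555: ccttgcttctctCCCCTtccttttctttt
GPD1, 34 bases before, chrIV:411779-411807: ttgtacacccccCCCCTccacaaacacaa
GPD2, 319 bases before, chrXV:216795-216823: gatgggttgctgAGGGGaagagtgtttag
GPD2, 14 bases before, chrXV:217100-217125: ttttccttcgctCCCCTtccttatca
GPP2, 274 bases before, chrV:280940-280968, minus strand: tacatagctgccCCCCTaaacgggcctcc
GCY1, 284 bases before, chrXV:550818-550846: gccttctcagaaAGGGGtagaatcaatct

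A match is a description of these letters. Of the 7 members that rose with edelfosine 6 have a match and DAK1 has none, and of the 2 that fell GPD2 has 2 matches and GPP1 none. No test was made of this tally.

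Edelfosine was followed by a change in 9 of the 10 genes. All 4 genes of glycerol use rose, the synthesis isozymes went opposite ways, the uptake gene STL1 rose from a very low level and the channel gene FPS1 did not pass the test. Values are scaled TPM, the length-normalised share of a transcript in its library divided by a scaling factor for that library, and changes are log2 differences of scaled TPM + 1, edelfosine over vehicle, from a limma fit with strain as a term. A gene was called at an adjusted p under 0.05 (Benjamini-Hochberg over all 5707 genes tested). Of the 10 members 7 were called higher, where 27.3% of all genes tested were, and 2 were called lower, where 27.3% of all genes were. The 3 edelfosine libraries lay above all 3 vehicle libraries for 7 members, against 30.3% of all genes, and below them for 2, against 31.3%. The median change was 1.56 over the members and 0.01 over all genes tested. All 10 members reached 1 TPM in all 6 libraries, so none entered the test through the treated libraries alone. TPM is a share of the RNA of a whole culture, so more transcript of a gene and less of all others, or fewer cells and less RNA per cell, cannot be told apart. The labels call the replicates biological.

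**Figure D1:**
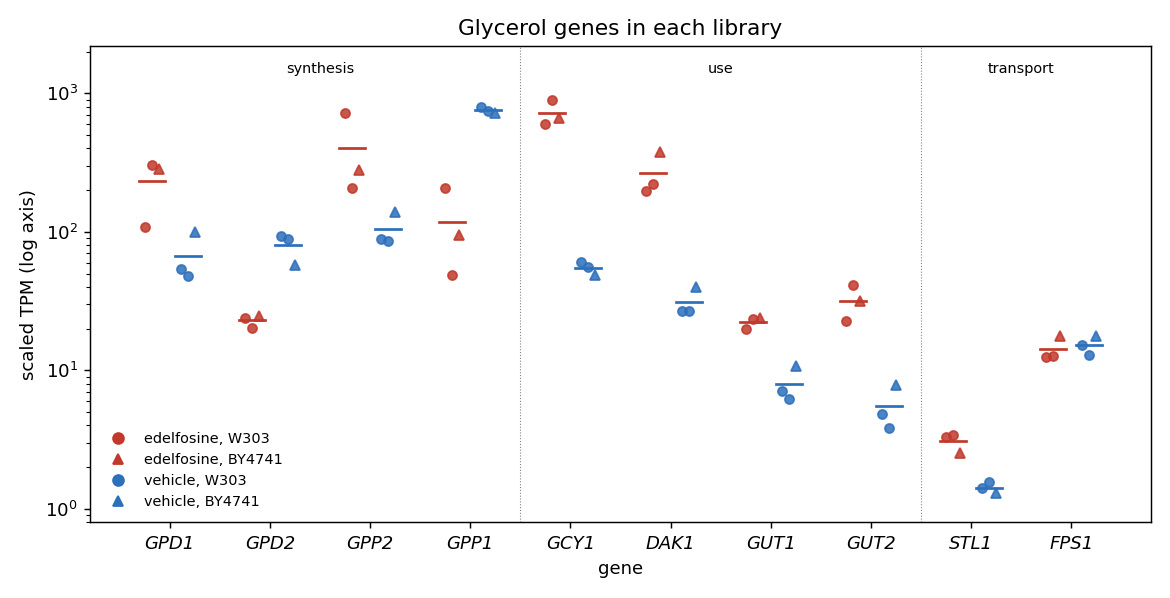
Scaled TPM (log axis) of the 10 glycerol genes in each library. Points are libraries, circles W303 and triangles BY4741, red edelfosine and blue vehicle, and short lines are means of 3. The red points lie above the blue ones for GPD1, GPP2, GCY1, DAK1, GUT1, GUT2 and STL1, below them for GPD2 and GPP1, and overlap them for FPS1.

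At the first step of synthesis one isozyme gene rose and the other fell. GPD1 had 108, 306 and 286 scaled TPM in edelfosine replicates 1, 2 and 3, against 53.5, 48.2 and 99.1 in vehicle replicates 1, 2 and 3. The groups did not overlap, but edelfosine replicate 1 was little above vehicle replicate 3, the BY4741 culture. GPD1 rose by 1.72 ± 0.38 (log2 ± SE; adjusted p = 0.00919, limma).

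GPD2 had 23.7, 20.4 and 24.7 scaled TPM with edelfosine, against 93.5, 89.5 and 58.1 with vehicle. Every edelfosine library was below every vehicle library, and the BY4741 vehicle library was the lowest of the vehicle group. GPD2 fell by 1.74 ± 0.21 on the log2 scale (adjusted p = 0.00125, limma).

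Within each library, where scaling plays no part, GPD1 made up 82.0%, 93.8% and 92.1% of the summed GPD1 and GPD2 TPM with edelfosine, against 36.4%, 35.0% and 63.0% with vehicle. The mean share was 89.3 ± 6.37% with edelfosine and 44.8 ± 15.8% with vehicle (SD, n = 3 each). GPD1 was the more abundant transcript in all 3 edelfosine cultures, against only the BY4741 culture among the 3 with vehicle. The log2 ratio of GPD1 to GPD2 was higher with edelfosine in each same-numbered pair, by 2.94, 4.73 and 2.73. The exact two-sided permutation test gave p = 0.1, the smallest value that 3 libraries against 3 allow, and 0.175 after adjustment over the 7 ratios tested. The sum of both transcripts was 131, 326 and 310.5 scaled TPM with edelfosine, against 147, 138 and 157 with vehicle, so edelfosine replicate 1 was below all vehicle libraries while replicates 2 and 3 were above them.

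At the phosphatase step, too, one isozyme gene rose and the other fell. GPP2 had 724, 208 and 279 scaled TPM with edelfosine, against 89.2, 85.7 and 139.7 with vehicle. Edelfosine replicate 1 stood far above the other 2 edelfosine libraries, and all 3 were above the vehicle group. GPP2 rose by 1.76 ± 0.48 (adjusted p = 0.0220, limma). Without edelfosine replicate 1 the rise was 1.14 and still called (adjusted p = 0.00153, limma), whereas leaving out vehicle replicate 1 or 2 ended the call (1.66 and 1.63, adjusted p = 0.0923 and 0.0959, limma).

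GPP1, the most abundant of the 10 transcripts in vehicle cultures, had 209, 48.5 and 94.3 scaled TPM with edelfosine, against 799.8, 741 and 727 with vehicle. The vehicle libraries were close together and the edelfosine libraries were spread widely below them. GPP1 fell by 2.92 ± 0.50 on the log2 scale (adjusted p = 0.00380, limma) and ranked 63 among the 1557 called falls by size. The change was -2.29 without edelfosine replicate 2 and -3.52 without edelfosine replicate 1, called in both (adjusted p = 0.000498 and 4.7e-05, limma).

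GPP2 made up 77.6%, 81.1% and 74.8% of the summed GPP2 and GPP1 TPM with edelfosine, against 10.03%, 10.4% and 16.1% with vehicle. The mean was 77.8 ± 3.16% with edelfosine and 12.2 ± 3.42% with vehicle (SD, n = 3 each), the widest gap among the pairs compared here, and both groups were tight. The log2 ratio of GPP1 to GPP2 differed by -4.94, -5.17 and -3.93 in the 3 same-numbered pairs, edelfosine minus vehicle (difference of means -4.68; p = 0.1, exact two-sided permutation test, the smallest possible, 0.175 adjusted over the 7 ratios). Edelfosine replicate 1, where GPP2 was highest in level, lay between the other edelfosine libraries in this share, and GPP1 was highest in it too. The summed GPP1 and GPP2 level was 933, 256 and 374 scaled TPM with edelfosine, against 889, 826 and 867 with vehicle. Fitted as 1 row, the sum changed by -0.94 ± 0.46 without passing (adjusted p = 0.126, limma).

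**Figure D2:**
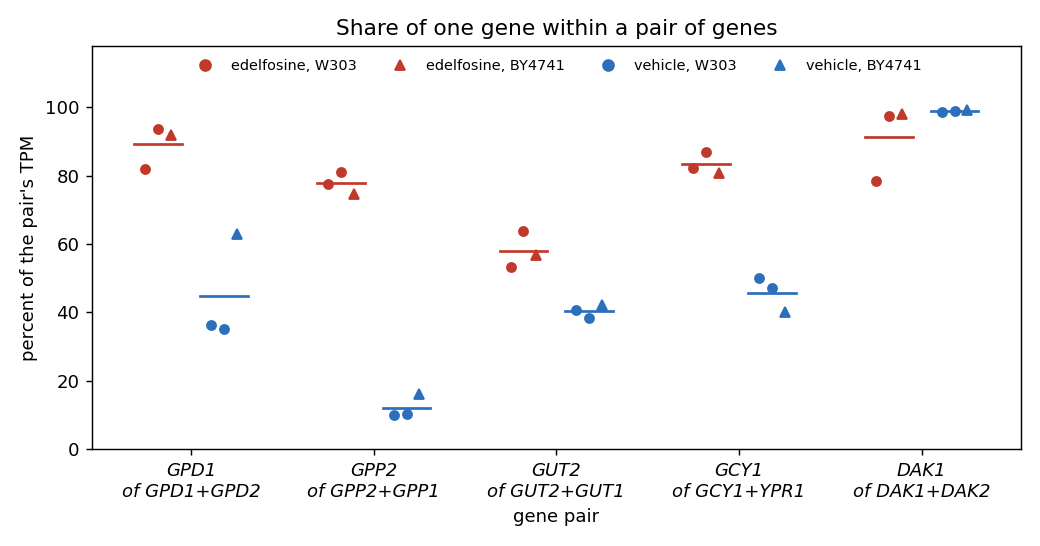
Percent of the summed TPM of a pair of genes contributed by the gene named first, in each library (left, red, edelfosine; right, blue, vehicle; circles W303, triangles BY4741; lines, means of 3). GPD1, GPP2, GUT2 and GCY1 took larger shares in all 3 edelfosine libraries than in any vehicle library. DAK1 took smaller shares in the edelfosine libraries (78.4%, 97.5% and 98.2%) than in any vehicle library (98.8% to 99.3%), by a wide margin only in edelfosine replicate 1.

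The genes of glycerol use rose in all 3 pairs. GCY1, which encodes an aldo-keto reductase with glycerol dehydrogenase activity, had the largest change of the 10 members. It had 596, 899 and 660.2 scaled TPM with edelfosine, against 60.6, 55.8 and 49.1 with vehicle, a ratio of means of 13.02. The groups were far apart and neither strain stood out. GCY1 rose by 3.66 ± 0.20 (adjusted p = 0.000188, limma), which ranked 56 among the 1557 called rises. Its percentile among all rows by level lay between 96.01 and 97.6 in edelfosine libraries and between 73.5 and 76.5 in vehicle libraries.

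Its relative YPR1, another reductase of this family, rose by 1.08 ± 0.14 (adjusted p = 0.00159, limma). GCY1 took 82.4%, 86.9% and 80.8% of the summed GCY1 and YPR1 TPM with edelfosine, against 50.1%, 47.2% and 40.02% with vehicle. The log2 ratio of GCY1 to YPR1 was 2.58 higher with edelfosine (2.21, 2.89 and 2.64 in the pairs; p = 0.1, exact two-sided permutation test, 0.175 adjusted over the 7 ratios).

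DAK1, for the dihydroxyacetone kinase that follows Gcy1, had 197, 220.4 and 375 scaled TPM with edelfosine, against 26.9, 26.7 and 39.9 with vehicle. The BY4741 library was the highest in both groups, and the differences in the 3 pairs were close together, at 2.83, 3.00 and 3.20 on the log2 scale. DAK1 rose by 3.01 ± 0.15 (adjusted p = 0.000142, limma), rank 94 among the called rises.

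The other kinase gene, DAK2, had 54.4, 5.70 and 6.91 scaled TPM with edelfosine, against 0.324, 0.316 and 0.277 with vehicle. It was near 0 in every vehicle library and passed the filter on low values only through the edelfosine libraries, so its call (3.46 ± 0.74; adjusted p = 0.00865, limma) adds nothing to those levels. Edelfosine replicate 1 stood far above the other 2 edelfosine libraries. DAK1 made up 78.4%, 97.5% and 98.2% of the 2 kinase transcripts with edelfosine and 98.8%, 98.8% and 99.3% with vehicle. The DAK1 share was lower with edelfosine in every pair, but with DAK2 near 0 in vehicle libraries it had little room to rise. As DAK2 passed the filter only through the edelfosine libraries, the share and the ratio that follows are descriptions. The p-values of that ratio lend no support to a shift. The log2 ratio of DAK1 to DAK2 depended on the pseudocount: without one it differed by -2.35, edelfosine minus vehicle (p = 0.1, exact two-sided permutation test, the smallest possible), and with 1 added to each TPM, more than DAK2 itself had in vehicle libraries, the pairs differed by -2.36, 1.05 and 0.73 (p = 1, same exact permutation test).

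The kinase and mitochondrial dehydrogenase of the classical route rose from low levels. GUT1, for glycerol kinase, had 19.8, 23.3 and 23.9 scaled TPM with edelfosine, against 7.08, 6.19 and 10.8 with vehicle. The groups did not overlap, the BY4741 vehicle library was the highest of its group, and the rise was 1.40 ± 0.17 (adjusted p = 0.00129, limma). GUT2, for the FAD-dependent glycerol-3-phosphate dehydrogenase of the mitochondrial membrane, had 22.6, 41.3 and 31.5 scaled TPM with edelfosine, against 4.87, 3.84 and 7.86 with vehicle. It rose by 2.34 ± 0.27 (adjusted p = 0.00117, limma), and edelfosine replicate 1 was the lowest of its group.

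GUT2 was above GUT1 in all edelfosine libraries (53.3% to 63.9% of their sum) and below it in all vehicle libraries (38.2% to 42.2%). The log2 ratio of GUT1 to GUT2 was 0.92 lower with edelfosine (p = 0.1, exact two-sided permutation test, 0.175 adjusted over the 7 ratios). The ratio of GUT1 to GPD1, a gene of use against a gene of synthesis, differed by -0.36, with pairs at 0.33, -0.96 and -0.46 (p = 0.4, 0.467 adjusted, same exact permutation test), so a shift between them was not shown.

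The transport genes had the smallest changes of the 10. STL1, for the glycerol symporter, had 3.30, 3.43 and 2.53 scaled TPM with edelfosine, against 1.41, 1.56 and 1.31 with vehicle. The groups did not overlap and the rise of 0.75 ± 0.13 was called (adjusted p = 0.00396, limma), but on log2(value + 1) a change at this level is understated, and with a pseudocount of 0.1 it was 1.06. STL1 was the least abundant of the 10 transcripts in all 6 libraries, at percentiles of 9.92 to 14.2 among all rows with edelfosine and of 5.31 to 7.01 with vehicle. Its call was lost when the change was tested against 1.5-fold (adjusted p = 0.334, limma).

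FPS1, for the export channel, had 12.5, 12.7 and 17.6 scaled TPM with edelfosine, against 15.1, 12.9 and 17.6 with vehicle. The groups overlapped and the BY4741 library was the highest in both. Its change was -0.09 ± 0.14 (95% interval -0.43 to 0.25; adjusted p = 0.610, limma). Without scaling, which moves the median of all genes to 0.55, FPS1 stood at 0.48 and did not pass (adjusted p = 0.0657, limma). The ratio of STL1 to FPS1 was higher with edelfosine in each pair, by 0.95, 0.60 and 0.49, and its groups overlapped with the pseudocount of 1 (p = 0.2, exact two-sided permutation test, 0.28 adjusted over the 7 ratios). Without a pseudocount the difference was 1.21 (p = 0.1, same exact permutation test, the smallest possible), so the overlap rests on that choice.

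**Figure D3:**
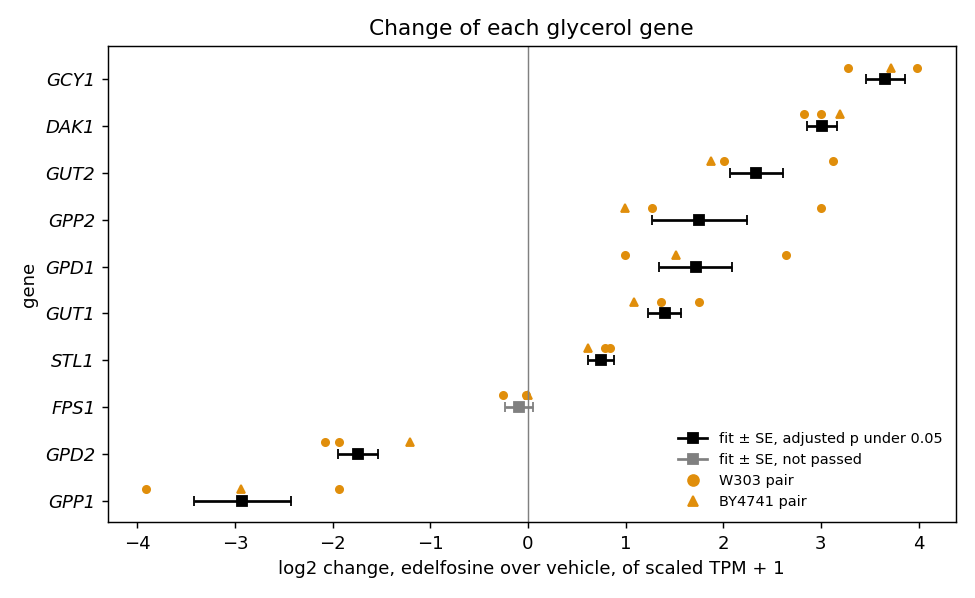
Log2 change of scaled TPM + 1 (edelfosine over vehicle) of each glycerol gene. Squares with bars are the limma estimate ± SE, black where the adjusted p was under 0.05 and grey for FPS1; orange marks are the differences within same-numbered pairs, circles W303 and the triangle BY4741. GCY1 (3.66), DAK1 (3.01) and GUT2 (2.34) lead the rises, and GPP1 (-2.92) and GPD2 (-1.74) are the falls.

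The order of the members by level, which TPM allows because it is per length, was different in the 2 groups. In edelfosine cultures mean scaled TPM ran from GCY1 (718 ± 159) over GPP2 (404 ± 280), DAK1 (264 ± 96.7), GPD1 (233 ± 109) and GPP1 (117 ± 82.6) to GUT2 (31.8 ± 9.33), GPD2 (22.9 ± 2.26), GUT1 (22.4 ± 2.20), FPS1 (14.3 ± 2.89) and STL1 (3.09 ± 0.49; SD, n = 3). Neighbours from GCY1 to GPP1 overlapped, as did GUT2, GPD2 and GUT1, while FPS1 and STL1 each stood clear. In vehicle cultures GPP1 (756 ± 38.8) was clear of GPP2 (105 ± 30.2), GPD2 (80.3 ± 19.4), GPD1 (66.9 ± 28.0) and GCY1 (55.2 ± 5.79), among which neighbours overlapped, and DAK1 (31.2 ± 7.61), FPS1 (15.2 ± 2.39), GUT1 (8.01 ± 2.43), GUT2 (5.52 ± 2.09) and STL1 (1.42 ± 0.12) followed (SD, n = 3). Of these lower ones GUT1 and GUT2 overlapped. Summed unscaled TPM of the 4 genes of use was 1046, 1484 and 1310.0 with edelfosine, against 82.7, 66.2 and 95.9 with vehicle, most of it GCY1 in the edelfosine libraries. That of the 4 synthesis genes was 1332, 731 and 822 with edelfosine, against 862, 689.7 and 912 with vehicle, and the groups overlapped. The direction of this synthesis sum depends on scaling, which lowers the edelfosine values and raises the vehicle values. In scaled TPM the GPD1 and GPD2 sum averaged 256 with edelfosine and 147 with vehicle. That of GPP1 and GPP2 averaged 521 with edelfosine and 861 with vehicle.

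Strain was examined next. Between BY4741 and W303, with treatment as a term, 0 of the 10 members were called, against 0.421% of all genes (limma; smallest adjusted p among members 0.192). At an unadjusted p under 0.05 there were 2, DAK1 (0.70 higher in BY4741) and FPS1 (0.38 higher), where 659 of all 5707 genes were. For the difference in edelfosine effect between the strains, 0% of all genes were called and none of the members (limma interaction term; at an unadjusted p under 0.05, 176 of all genes and 0 members). No other tool was run on either. BY4741 had 1 library per treatment, so these tests have little to rest on. URA3, which is deleted in BY4741, was at 0.0629 TPM with edelfosine and 0 with vehicle in that strain and between 90.01 and 109 TPM in W303.

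Further genes of glycerol metabolism were described by lists drawn up with earlier results of these data known. Of 17 further genes for glycerol-related reductases, channels, regulators and NADH oxidation, 16 were tested and 1, the acyltransferase homologue GUP2, was below 1 TPM in all libraries. Of the 16, 10 were called higher and 1, the water channel gene AQY2, lower, where 27.3% of all genes were called in each direction. The median change of the 16 was 1.29. Among the 10, DAK2, NDE2 and ADR1 reached 1 TPM in 0, 0 and 1 of the vehicle libraries and passed the filter on low values through the edelfosine libraries, so their calls add nothing to their levels. GRE3, ARA1 and AQY3 had the smallest adjusted p of the others. GRE3, an aldose reductase, averaged 573 ± 156 scaled TPM with edelfosine and 64.2 ± 8.70 with vehicle, and ARA1, another aldo-keto reductase, 455 ± 28.0 with edelfosine and 112 ± 17.8 with vehicle (SD, n = 3 each). They rose by 3.11 and 2.02 (adjusted p = 0.000400 and 0.000641, limma). AQY3 (YFL054C), a putative channel related to Fps1, averaged 29.8 ± 9.86 with edelfosine and 3.38 ± 1.58 with vehicle, a rise of 2.82 (adjusted p = 0.000979, limma). NDE2, for an external NADH dehydrogenase of mitochondria, averaged 30.5 ± 8.90 with edelfosine and 0.650 ± 0.358 with vehicle. Its paralogue NDE1 was more abundant, at 95.3 ± 97.3 with edelfosine and 105 ± 8.03 with vehicle. NDE1 was not called (-0.65; adjusted p = 0.370, limma), and its pairs differed in sign (0.93, -1.05 and -1.82).

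Of 23 genes of the HOG pathway itself, all tested, 6 were called higher and 3 lower, with a median of 0.08, and the share called higher was near that of all genes (27.3% higher, 27.3% lower). The kinase genes HOG1 and PBS2 had changes of -0.16 ± 0.15 (adjusted p = 0.420, limma; 95% interval -0.53 to 0.21) and 0.50 ± 0.16 (adjusted p = 0.0378, limma). Rises were seen for PTP2, a phosphatase that acts on Hog1 (1.16; 13.4 ± 2.65 scaled TPM with edelfosine and 5.40 ± 0.564 with vehicle), and OPY2, a membrane anchor of the pathway (1.29; 59.0 ± 6.81 with edelfosine and 23.8 ± 4.45 with vehicle). The osmosensor genes SHO1 (-1.13; 8.58 ± 0.966 with edelfosine and 20.4 ± 5.47 with vehicle) and MSB2 (-0.82; 1.86 ± 0.205 with edelfosine and 4.06 ± 0.613 with vehicle) fell (SD, n = 3 each; adjusted p of the 4 genes from 0.00227 to 0.00582, limma). Without scaling SHO1 and MSB2 did not pass (adjusted p = 0.1004 and 0.135, limma), nor did they against 1.5-fold (0.0828 and 0.241).

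Of 11 genes around dihydroxyacetone phosphate, glycerol-3-phosphate and the lipids related to them, 4 rose and 2 fell, with a median of 0.51. Of all genes, 27.3% were called in each direction. Of the genes for the acyltransferases that use glycerol-3-phosphate, GPT2 rose by 1.31 (adjusted p = 0.00906, limma). The other, SCT1, was not called (0.37; adjusted p = 0.230, limma). PGC1, a phospholipase that acts on phosphatidylglycerol, rose by 1.14, AYR1, a reductase of the acyl dihydroxyacetone phosphate route, by 1.12, and GDE1, which releases glycerol-3-phosphate from glycerophosphocholine, by 1.01 (adjusted p from 0.00274 to 0.00354, limma). The aldolase gene FBA1, upstream of glycerol synthesis, averaged 2467 ± 860 scaled TPM with edelfosine and 5920 ± 876 with vehicle and fell by 1.32 (SD, n = 3 each; adjusted p = 0.00833, limma). It did not pass without scaling (adjusted p = 0.0520, limma), without vehicle replicate 1 (0.0503) or without both replicate 1 libraries (0.0591). Against 1.5-fold AYR1, GDE1 and FBA1 did not pass (adjusted p = 0.0568, 0.0735 and 0.0736, limma). Of 20 known osmostress targets 15 rose and 1, the hexose transporter gene HXT1, fell, where 27.3% of all genes were called in each direction, with a median of 2.59. The 4 with the smallest adjusted p, GRE1, NQM1, TKL2 and SIP18, rose by 7.17, 6.90, 6.86 and 9.83. In that order they averaged 716, 1313, 290 and 17540 scaled TPM with edelfosine, against 3.76, 11.1, 1.46 and 19.4 with vehicle. The sizes depend on the pseudocount at such low vehicle levels: with 5 GRE1 rose by 6.29 and TKL2 by 5.48.

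**Figure D4:**
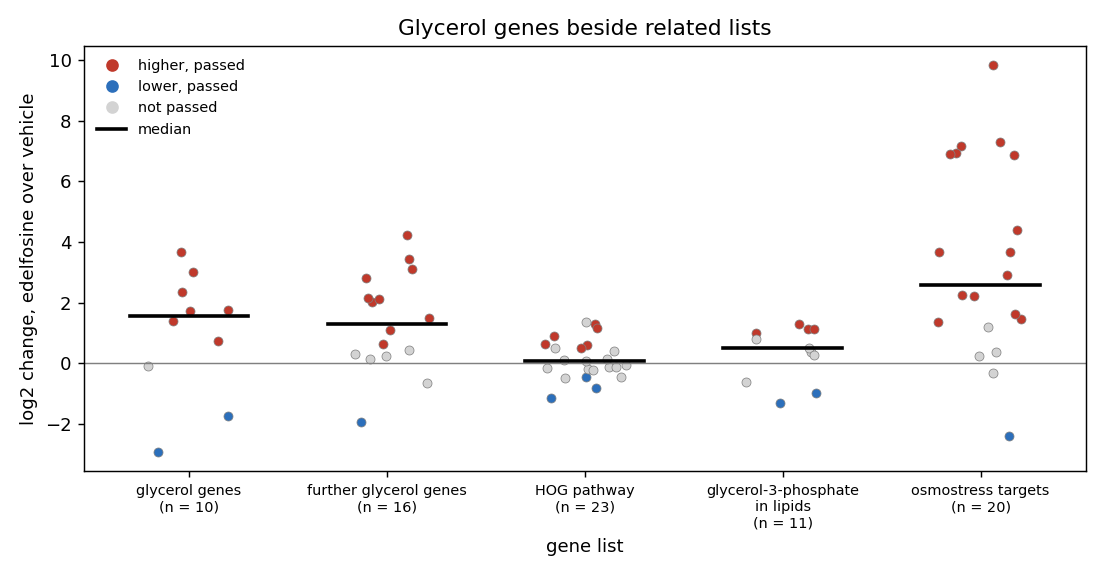
Log2 change (edelfosine over vehicle) of the 10 glycerol genes and of the tested genes of 4 related lists. Each point is a gene, red called higher, blue called lower, grey not called, and the black line is the median: 1.56 for the glycerol genes, 1.29 for further glycerol genes, 0.08 for the HOG pathway, 0.51 for glycerol-3-phosphate in lipids and 2.59 for osmostress targets.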

How the data were processed

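The 10 members and all gene lists were chosen with earlier results of these data known. The authors deposited TPM for 5917 genes in 6 libraries, made with kallisto and sleuth per the submitters' processing notes; the unit was read from the values, which are not whole and sum to 1000000 in each library. No version, transcript set or build is given in the sources used here. Read depth cannot be recovered from TPM and no counting interval was given. Between 5550 and 5717 rows reached 1 TPM per library. Of the rows, 5911 matched an R64 locus tag, and the 5707 that reached 1 TPM in 3 or more libraries were tested. Libraries were scaled by a trimmed mean of M values (30% of M and 5% of A trimmed at each end; factors 1.20 to 1.25 with edelfosine and 0.715 to 0.891 with vehicle). Limma 3.58.1 in R 4.3.3 was fitted to log2(scaled TPM + 1) with strain and treatment and a mean-variance trend (residual degrees of freedom 3, prior 3.41), and p-values were adjusted by Benjamini-Hochberg; the interaction fit had 2 residual degrees of freedom. The fit was tested on simulated data with far fewer changed genes than were called here and without a strain effect. Ratios of 2 genes used log2(TPM + 1) within a library and an exact permutation test. Coding sequences were aligned globally with Biopython 1.88. Named genes were the 10 members, genes entering a ratio, and up to 4 genes per list with the smallest adjusted p. HOG1, PBS2, GUP2, HXT1, URA3, AQY2, NDE1, GPT2 and SCT1 were added after their values were seen. Whether same-numbered libraries pair beyond the number is unclear: their deviations from group means correlated at 0.33, 0.05 and 0.51 in replicates 1, 2 and 3. Alternatives covered scaling, filter, pseudocount, design, left-out libraries, a fold threshold and summed GPP1 and GPP2.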

Additional observations from a re-analysis of the deposited data

How the results depend on the processing

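The 9 calls among the glycerol genes (7 higher, 2 lower) were the same in number under the 3 other scalings, both other pseudocounts, no low-value filter and no strain term. With at least 10 TPM in 3 libraries 8 were called, as STL1 was not tested, and against 1.5-fold 7, without GPP2 (adjusted p = 0.0937, limma) and STL1 (0.334). Leaving out libraries or pairs gave 7 to 9 calls: GPP2 was lost without vehicle replicate 1 or 2, and GPD1 without vehicle replicate 2 (1.65; adjusted p = 0.0514, limma). With GPP1 and GPP2 as 1 row, 7 of 9 rows were called. With the replicate number as a block the count stayed at 9 (related lists: 43), and a sign-flip test of the ratios over 3 pairs cannot go below p = 0.25; each edelfosine library correlated best with the vehicle library of its number, but vehicle replicate 2 did so with edelfosine replicate 1. FPS1 turned positive with TPM as deposited (0.48) and without replicate 1 (0.0011), passing in neither; leaving out libraries or pairs gave -0.14 to 0.0011. The DAK1 to DAK2 ratio (-0.19) became 1.29 with a pseudocount of 5 and -2.35 with none, and ran between -0.82 and 0.89 as pairs were left out, the highest without replicate 1; the cause was not tested. No other ratio changed sign. Related list genes had 35 higher and 7 lower calls, and 49 and 2 with TPM as deposited, where all genes had 2837 higher and 760 lower calls against 1557 and 1557. Against 1.5-fold 611 genes were higher and 706 lower, and without replicate 2 987 and 1038. Neither the strain nor the interaction test called a member with TPM as deposited or with pseudocounts of 0.1 or 5. Depth is unknown, so how far it limits the low values of STL1, GUT1 and GUT2 cannot be given.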

Other observations

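Edelfosine replicate 1, a W303 culture, differed from the other edelfosine cultures in several of these genes, which were picked out after their values were seen. It had the lowest GPD1 (108 scaled TPM, against 306 and 286 in replicates 2 and 3) and the highest GPP2 (724, against 208 and 279), GPP1 (209, against 48.5 and 94.3) and DAK2 (54.4, against 5.70 and 6.91). SMP1, which encodes a transcription factor of the HOG pathway, had 54.0 scaled TPM in that library, against 11.4 and 5.72 in the other edelfosine libraries and 5.25 to 5.74 in the vehicle libraries, and its change did not pass (1.37 ± 0.62; adjusted p = 0.103, limma). Without edelfosine replicate 1 the changes of GPD1, GPP2 and GPP1 were 2.12, 1.14 and -3.52. No library-level cause was tested.

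The water channel gene AQY1 and the nicotinamidase gene PNC1, whose product enters peroxisomes together with Gpd1, were also higher with edelfosine. AQY1 had 16.4, 12.3 and 7.80 scaled TPM with edelfosine, against 1.84, 1.71 and 2.24 with vehicle, a rise of 2.12 (adjusted p = 0.00115, limma). The other water channel gene, AQY2, went the opposite way. It had 14.3, 3.00 and 1.15 scaled TPM with edelfosine, against 35.0, 26.9 and 6.49 with vehicle. The change of AQY2 was -1.95 (adjusted p = 0.0133, limma), and its groups overlapped. The BY4741 library was the lowest for AQY2 in both groups (strain difference -1.97; adjusted p = 0.225, limma). Of the 420 runs of 31 bases in AQY2, 20 (4.76%) recur in YLL053C in R64. PNC1 had 1884, 2966 and 3386 with edelfosine, against 443, 602 and 811 with vehicle, a rise of 2.15 (adjusted p = 0.00121, limma). ADR1, a transcription factor that activates genes of glycerol use, had 4.32, 6.28 and 4.96 scaled TPM with edelfosine, against 1.12, 0.950 and 1.44 with vehicle, and passed the filter on low values through the edelfosine libraries. For AQY1 and PNC1, named after their values were seen, the edelfosine libraries were all above the vehicle libraries, as for 30.3% of all genes tested. The same held for ADR1, also named after its values were seen. Given how ADR1 passed the filter, that separation adds nothing to its levels.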
